A study of Mus musculus with 36 samples.

Results

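Type I interferon-stimulated genes were followed as 36 genes picked by symbol from a table of normalised RNA-seq expression in mouse bone marrow monocytes and the osteoclasts grown from them, and 36 of 36 were found among its 38942 rows. Bone marrow cells had been sorted by surface Ly6C into negative (Ly6Cneg), intermediate (Ly6Cint) and high (Ly6Chi) subsets. The OC groups (osteoclasts) were cultured for 4 days with 20 ng/ml MCSF, a macrophage growth factor, and 40 ng/ml RANKL, the cytokine that drives osteoclast formation. The BMM groups (bone marrow monocytes) were taken at day 0, for which the design text names MCSF alone. Each stage and subset was labelled either Irf8 cKO or WT, where Irf8 encodes a transcription factor of the interferon regulatory family. Both male and female mice were used. The sources used here do not give their strain or age, the Cre driver or the targeted allele. Of 36 labelled samples 34 had a column of values: 10 groups had 3 libraries, the WT-labelled Ly6Cneg OC and BMM groups had 2 each, and the remaining 2 were not analysed here. The labels do not say whether the libraries of a group came from separate animals, so p-values measure only the spread between libraries, which may be technical.

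Type I interferons bind the receptor IFNAR1/IFNAR2 on nearly every cell, and the kinases JAK1 and TYK2 then activate the factor ISGF3, which holds STAT2 and IRF9. ISGF3 binds the interferon-stimulated response element (ISRE) near its target genes, whose products sense viral nucleic acid, block translation and replication, or feed back on the pathway. In bone, type I interferon signalling is known to restrain osteoclast formation, and IRF8 is known as an inhibitor of osteoclast formation and a factor of the monocyte lineage that binds composite elements with the ETS factor PU.1.

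RefSeq promoters on build GRCm38.p6, each a window of 300 bases that ends shortly after the annotated start, were matched by symbol for 27 of the 36 genes. The ISRE core, searched on both strands as GAAA, any 2 bases and GAAA, lay in the promoters of 16 of these 27 genes (59.3%) and in 3.99% of the 27025 genes with a promoter in the table. The composite element, searched on both strands as GGAA, any 2 bases and GAAA, lay in 3 of 27 (11.1%) and in 3.16% of all genes; the gamma-activated site, searched on both strands as TTC, any 3 bases and GAA, lay in 7 of 27 (25.9%) and in 9.55% of all genes. The first 2 motifs share most of their letters and can overlap. The promoters printed here belong to the 2 genes that followed the common pattern most closely, Ifit3 (chr19:34583279-34583578, plus strand) and Ifit1 (chr19:34640639-34640938, plus strand), and to 3 that left it, Ifitm3 (chr7:141010695-141010994, minus strand), Oas3 (chr5:120777610-120777909, minus strand) and Slfn4 (chr11:83174936-83175235, plus strand). They are written 5′ to 3′ on the gene's own strand, and capitals mark the matches to the ISRE core.
Ifit3: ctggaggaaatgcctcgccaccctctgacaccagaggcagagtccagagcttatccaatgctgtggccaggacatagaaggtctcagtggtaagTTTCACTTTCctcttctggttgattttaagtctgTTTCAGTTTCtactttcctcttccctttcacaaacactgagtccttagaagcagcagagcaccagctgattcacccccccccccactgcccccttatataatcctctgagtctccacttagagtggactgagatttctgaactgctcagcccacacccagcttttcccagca
Ifit1: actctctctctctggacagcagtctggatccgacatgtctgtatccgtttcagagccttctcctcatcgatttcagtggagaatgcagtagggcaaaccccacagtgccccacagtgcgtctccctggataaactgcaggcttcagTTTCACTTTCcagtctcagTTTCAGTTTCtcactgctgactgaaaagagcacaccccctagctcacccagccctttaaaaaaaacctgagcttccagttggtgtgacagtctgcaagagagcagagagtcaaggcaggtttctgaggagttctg
Ifitm3: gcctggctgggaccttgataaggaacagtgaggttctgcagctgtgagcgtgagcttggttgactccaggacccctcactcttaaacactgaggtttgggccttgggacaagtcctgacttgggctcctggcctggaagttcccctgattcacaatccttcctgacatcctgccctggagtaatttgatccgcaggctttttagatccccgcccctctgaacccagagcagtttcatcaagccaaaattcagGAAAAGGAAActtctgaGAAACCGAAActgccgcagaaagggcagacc
Oas3: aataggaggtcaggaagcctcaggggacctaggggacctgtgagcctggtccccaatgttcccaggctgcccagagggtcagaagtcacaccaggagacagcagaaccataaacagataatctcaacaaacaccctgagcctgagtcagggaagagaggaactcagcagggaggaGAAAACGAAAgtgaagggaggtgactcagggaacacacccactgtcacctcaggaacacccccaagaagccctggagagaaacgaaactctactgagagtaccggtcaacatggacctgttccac
Slfn4: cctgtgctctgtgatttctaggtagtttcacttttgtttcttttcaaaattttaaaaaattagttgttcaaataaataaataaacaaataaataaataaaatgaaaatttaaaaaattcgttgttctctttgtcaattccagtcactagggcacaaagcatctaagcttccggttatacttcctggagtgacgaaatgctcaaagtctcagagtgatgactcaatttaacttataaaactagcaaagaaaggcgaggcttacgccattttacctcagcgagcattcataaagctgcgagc
Ifit3, Ifit1 and Ifitm3 each held 2 matches, Oas3 held 1, and the letters of the core were not found in the Slfn4 window. Isg20, which also left the common pattern, had 3 promoters. They are not printed here, and the letters of the core were not found in any of them.

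Values are log2-scale normalised expression as the authors deposited them, with a common minimum of 3.90 that stands for no reads. The scale is compressed at low levels: doubling from 5 to 10 reads raised a value by 0.40 to 0.47, and doubling from 50 to 100 reads raised it by 0.54 to 0.62, so a difference between libraries understates the change of a low gene. Relative depth, read from the steps between low values, spanned 2.47-fold between libraries, 1 read stood at 4.68 to 5.04, and 23053 to 35171 genes were detected per library. Of the 1224 values of the 36 genes none was at the minimum; they ran between 5.47 and 15.56, and 12 values of 3 genes lay under the value of 10 reads. The Irf8 total went against its label: group means were 11.84 to 14.25 in libraries labelled cKO, against 10.10 to 13.55 in libraries labelled WT, and Irf8 was higher in the cKO-labelled group in all 6 comparisons of label. A gene total does not check the removal of part of a gene. Every direction below is therefore given for the library labels as deposited. Xist, expressed from the inactive X chromosome, averaged 12.24 to 13.66 in cKO-labelled groups and 14.01 to 15.15 in WT-labelled groups. The Y-linked Ddx3y averaged 10.53 to 10.77 in cKO-labelled groups and 5.23 to 6.12 in WT-labelled groups. Every cKO-labelled library held both transcripts, the lowest at 12.08 for Xist and 10.43 for Ddx3y. The mix of donor sexes in the libraries thus differed with the genotype label, and their effects cannot be told apart. Ly6c2, a gene of the sorted antigen, averaged 11.67, 14.46 and 13.29 in cKO-labelled BMM Ly6Cneg, Ly6Cint and Ly6Chi libraries, and 12.26, 13.54 and 9.89 in the WT-labelled ones. Under both labels Ly6Cint was above Ly6Chi, against the order of the gates, and under the WT label Ly6Chi was the lowest. The 6 osteoclast markers on the list (Ctsk, Acp5, Mmp9, Calcr, Dcstamp and Ocstamp) were higher in OC than in BMM libraries in all 6 comparisons of stage.

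The interferon-stimulated genes shared the highest of the 12 groups. Each of the 36 was highest in WT-labelled BMM Ly6Cint cells, and for each the 3 libraries of that group lay above the other 31. The step down to the second group was 1.34 for Ifi35, a STAT-inducible leucine zipper protein, 4.04 for Ifit2 and 2.2 at the median. WT-labelled BMM Ly6Chi cells came second for 28 genes and WT-labelled OC Ly6Cneg cells for 7 (Oas2, Oas3, Usp18, Ddx58, Parp9, Ifitm3 and Eif2ak2). For Slfn4 the second was cKO-labelled BMM Ly6Cint. The lowest group was WT-labelled OC Ly6Chi for 17 genes, and one of the 3 cKO-labelled BMM groups for 10, WT-labelled BMM Ly6Cneg for 5 and cKO-labelled OC Ly6Cint for 4.

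**Figure D1:**
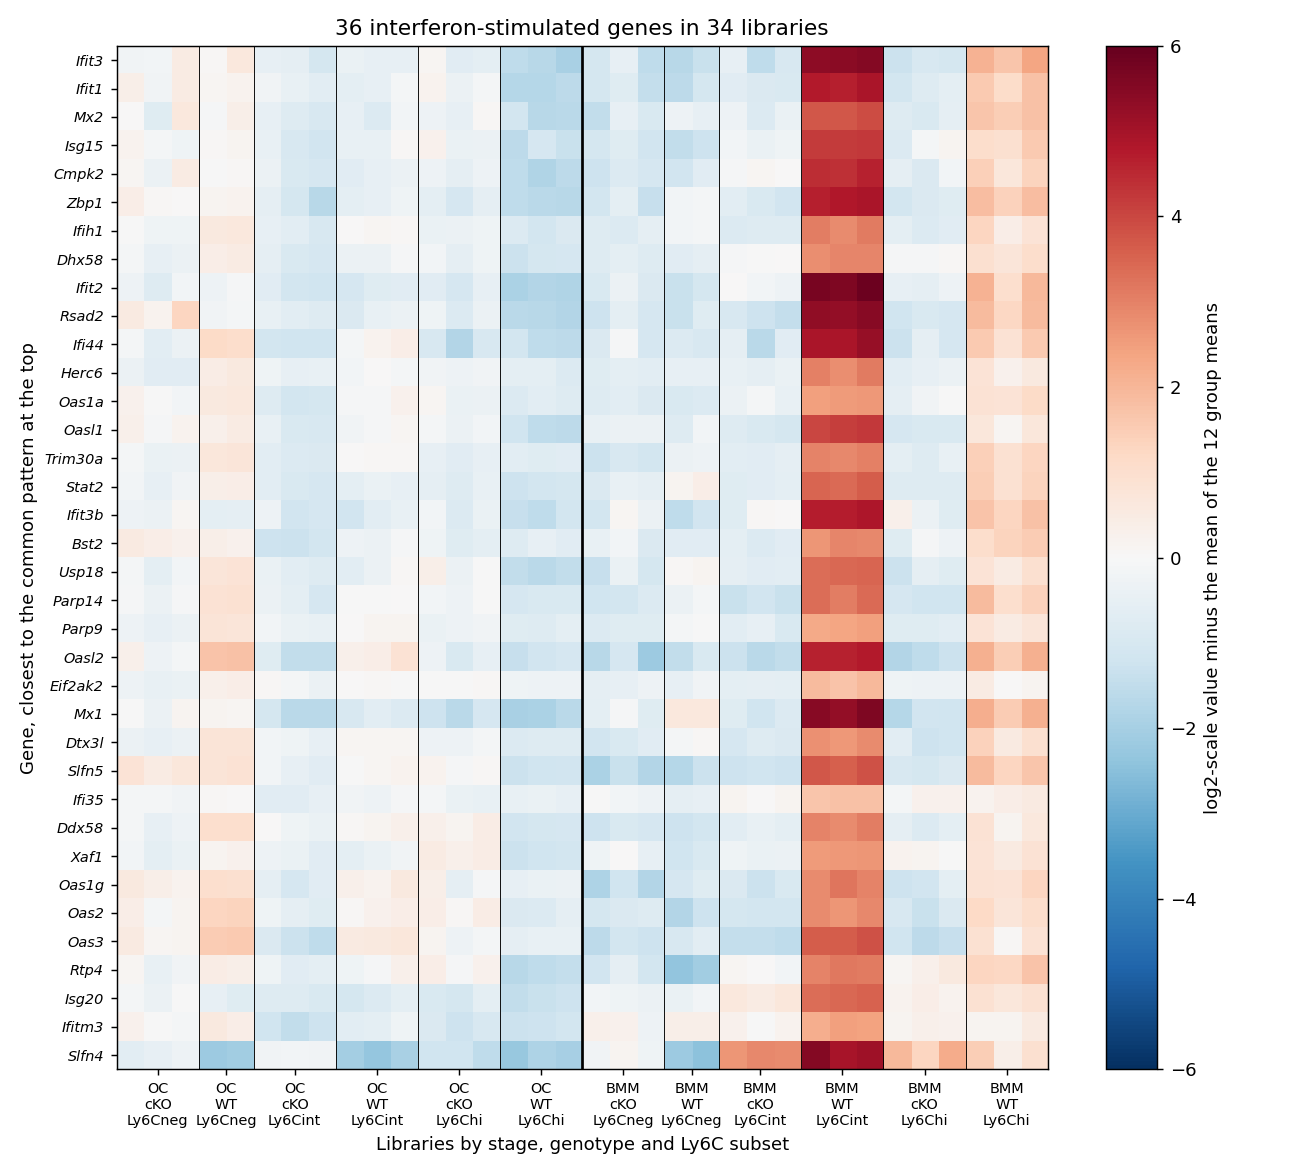
Expression of the 36 genes (rows) in the 34 libraries (columns, set out by the 12 groups). Each cell is the library's value minus the gene's mean over the 12 group means, on the deposited log2 scale. OC groups are left and BMM groups right, and each cKO-labelled group is left of its WT-labelled counterpart. The WT-labelled BMM Ly6Cint columns are the highest in every row, and the Slfn4 row differs from the others in the cKO-labelled BMM columns.

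The mean of the 36 centred values, taken per library, put figures on that order. It was 3.65 ± 0.08 in WT-labelled BMM Ly6Cint (SD, n = 3) and 1.12 ± 0.27 in WT-labelled BMM Ly6Chi (SD, n = 3). It was 0.40 ± 0.04 in WT-labelled OC Ly6Cneg (SD, n = 2), and below 0 in the other 9 groups. These 3 groups were separated by more than their spreads. The next ones were not: cKO-labelled OC Ly6Cneg had −0.08 ± 0.17 (SD, n = 3), WT-labelled OC Ly6Cint −0.23 ± 0.14 (SD, n = 3) and cKO-labelled OC Ly6Chi −0.35 ± 0.18 (SD, n = 3). In the cKO-labelled BMM groups the mean was −0.80 ± 0.21 in Ly6Cneg, −0.52 ± 0.06 in Ly6Cint and −0.56 ± 0.09 in Ly6Chi (SD, n = 3 each). It was −0.73 ± 0.21 in cKO-labelled OC Ly6Cint (SD, n = 3) and −0.73 ± 0.15 in WT-labelled BMM Ly6Cneg (SD, n = 2). The lowest was WT-labelled OC Ly6Chi at −1.16 ± 0.03 (SD, n = 3), below every other group by more than its spread.

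In BMM Ly6Cint cells all 36 interferon-stimulated genes were lower in the cKO-labelled than in the WT-labelled libraries, by 1.61 (Ifi35) to 6.56 (Rsad2) on the log2 scale. The median difference of the 36 was −4.04, while the median of all genes tested was 0.28. The test was limma with Benjamini-Hochberg adjustment over 38873 genes, called under 0.05, and in this comparison it called 14.7% of all genes lower and 25% higher. In bulk samples fewer cells of a type and less RNA per cell cannot be told apart. Ifit3, a tetratricopeptide protein of the IFIT family, had 7.99, 6.98 and 7.53 in the cKO-labelled libraries, against 13.87, 13.90 and 14.01 in the WT-labelled ones. Rsad2 (viperin), which makes a chain-terminating nucleotide, had 8.18, 7.93 and 7.75 in the cKO-labelled libraries, against 14.47, 14.43 and 14.63 in the WT-labelled ones. For both genes the lowest WT-labelled library lay far above the highest cKO-labelled one. The difference was −6.42 for Ifit3 (SE 0.27, limma adjusted p = 4.85e-16) and −6.56 for Rsad2 (SE 0.23, limma adjusted p = 4.79e-18).

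The antiviral effectors followed in the same cells. Ifit1, which binds RNA with an uncapped or incompletely methylated 5′ end, had 8.21, 8.0 and 7.97 in cKO-labelled BMM Ly6Cint libraries, against 13.64, 13.56 and 13.77 in the WT-labelled ones (limma difference −5.60, SE 0.20, adjusted p = 1.56e-18). Mx1, a dynamin-like GTPase against influenza virus, had 7.32, 6.87 and 7.25 in the cKO-labelled libraries, against 13.51, 13.34 and 13.67 in the WT-labelled ones (limma difference −6.36, SE 0.20, adjusted p = 9.75e-23). Oasl2, of the oligoadenylate synthetase family, had 8.81, 8.44 and 8.62 in the cKO-labelled libraries, against 14.70, 14.68 and 14.83 in the WT-labelled ones (limma difference −6.12, SE 0.27, adjusted p = 2.16e-15). Rsad2, Ifit3, Mx1 and Oasl2 had the 4 largest differences of the 36, and no library of one label reached those of the other. By role, the 4 IFIT genes had a median difference of −5.74, the 2 MX genes −5.33 and the 3 genes of the ISG15 system −4.05. The 6 genes of the OAS family, which includes enzymes that make the activator of RNase L, had −4.54. Isg15, the ubiquitin-like modifier itself, had 8.94, 8.72 and 8.85 in the cKO-labelled libraries, against 13.27, 13.31 and 13.36 in the WT-labelled ones (limma difference −4.47, SE 0.23, adjusted p = 2.51e-14). The 5 genes of nucleic acid sensing (Ifih1, Ddx58, Dhx58, Zbp1 and the kinase PKR gene Eif2ak2) had a median difference of −3.49 and the 3 genes Parp9, Dtx3l and Parp14 had −3.61. Stat2, a subunit of ISGF3, had 10.16, 10.20 and 10.32 in the cKO-labelled libraries, against 14.39, 14.26 and 14.52 in the WT-labelled ones (limma difference −4.17, SE 0.12, adjusted p = 1.77e-26). The smallest difference was that of Ifi35, which had 10.33, 10.20 and 10.35 in the cKO-labelled libraries, against 11.84, 11.93 and 11.93 in the WT-labelled ones (limma difference −1.61, SE 0.10, adjusted p = 3.76e-16).

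Markers of other cells moved with this comparison. Of 10 neutrophil-lineage genes 9 were higher in cKO-labelled BMM Ly6Cint, with a summed value of 162.1 to 163.9 in those libraries, against 132.6 to 134.2 in the WT-labelled ones. Of 6 monocyte and macrophage genes 5 were lower and 1 higher, with sums of 78.2 to 79.1 in cKO-labelled libraries, against 89.2 to 90.1 in WT-labelled ones. Of 7 plasmacytoid dendritic cell genes, one of which is the member Bst2, 3 were lower, with sums of 49.4 to 52.9 in cKO-labelled libraries, against 57.2 to 58.6 in WT-labelled ones. No gene of these 3 lists was at the minimum in every library of either group, and their part in the result was not tested. The median difference of the 7 plasmacytoid dendritic cell genes was −0.56, and none was called higher. Siglech, 1 of these 7, was not called and averaged 6.37 in the cKO-labelled and 6.13 in the WT-labelled libraries. Over promoters, the median difference in BMM Ly6Cint was −3.61 for the 11 genes with no ISRE core match (range −6.12 to −1.61), −3.98 for the 8 with 1 match (−6.56 to −2.41) and −4.25 for the 8 with 2 or more (−6.42 to −2.21), and these ranges overlapped over most of their length.

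**Figure D2:**
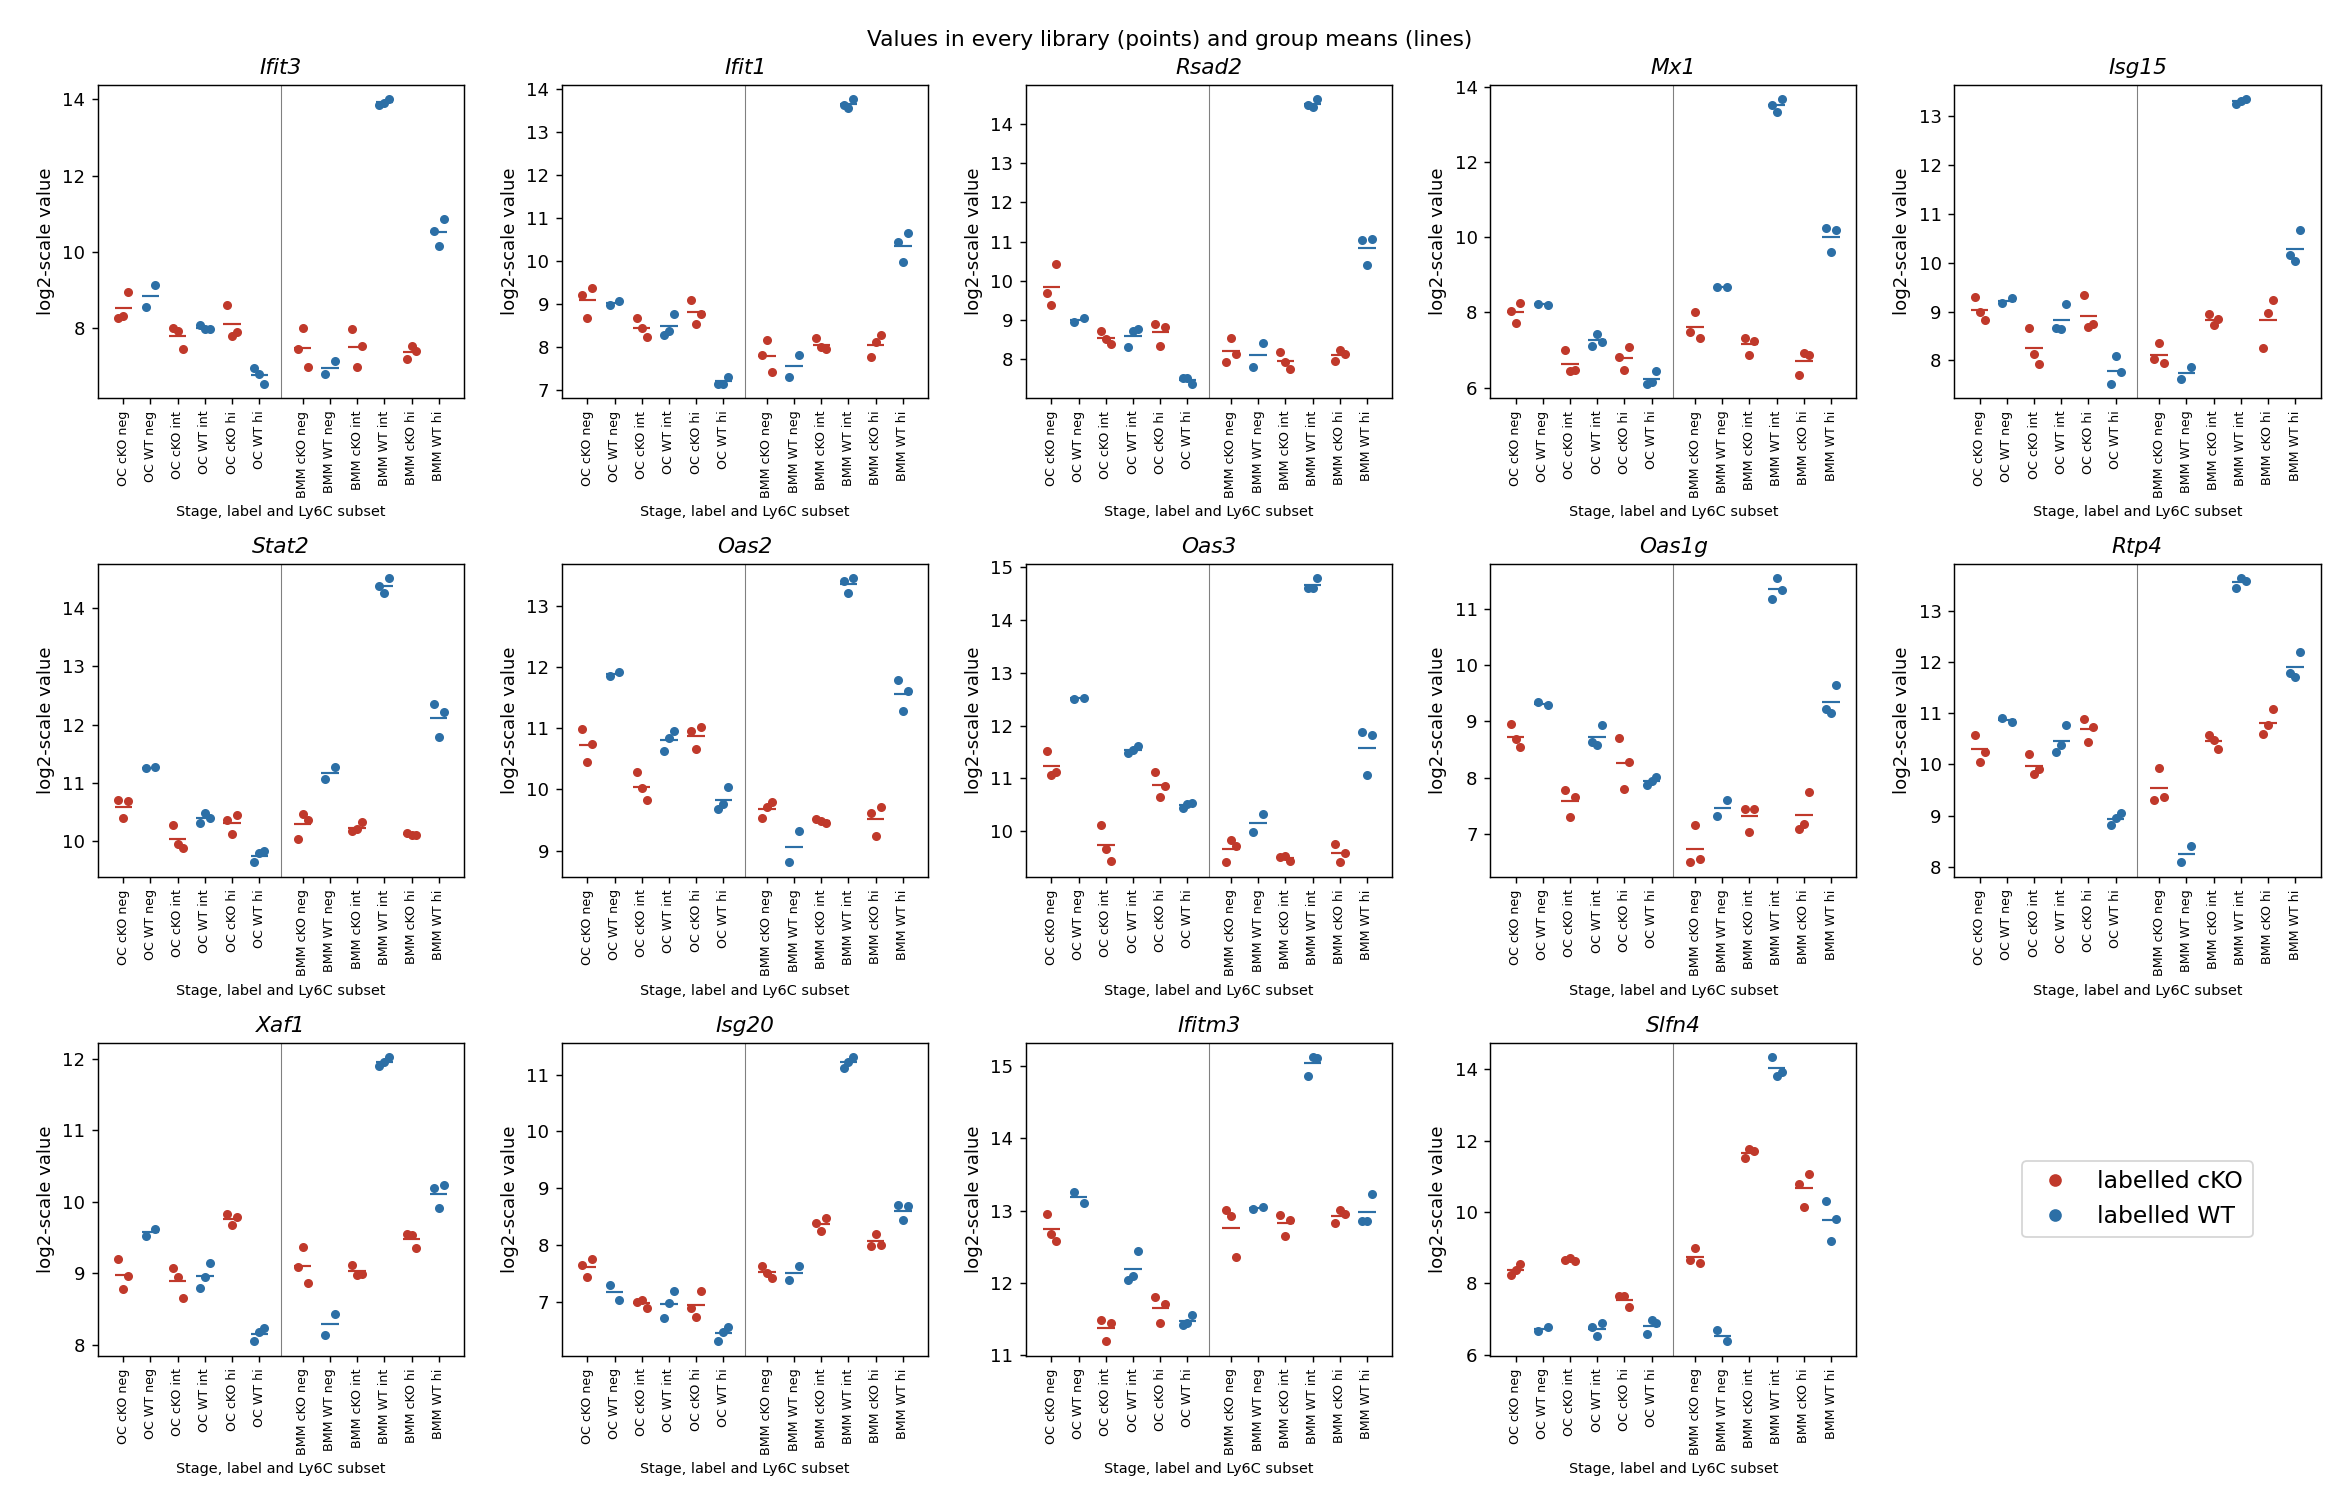
Deposited log2-scale value (vertical axis) of 14 genes in each of 34 libraries (points), by group along the horizontal axis, with OC groups left and BMM groups right and libraries labelled cKO and WT in different colours. In each panel the 3 WT-labelled BMM Ly6Cint points are the highest; in the Slfn4 panel the cKO-labelled BMM Ly6Cint points, at 11.52 to 11.76, come next.

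In BMM Ly6Chi cells 33 of the 36 genes were lower in the cKO-labelled libraries and 1, Slfn4, was higher. Of all genes 15.3% were lower and 14.4% higher. The median difference of the 36 was −1.75, against 0.00 for all genes. The 4 genes with the largest fall were Oasl2, Mx1, Ifit3 and Rsad2, the 4 that led in Ly6Cint as well. Mx1 had 6.33, 6.92 and 6.86 in cKO-labelled BMM Ly6Chi libraries, against 10.24, 9.60 and 10.19 in the WT-labelled ones (limma difference −3.31, SE 0.20, adjusted p = 2.61e-15). Ifit3 had 7.19, 7.54 and 7.41 in the cKO-labelled libraries, against 10.55, 10.16 and 10.86 in the WT-labelled ones (limma difference −3.14, SE 0.27, adjusted p = 6.16e-10). Oasl2 had 8.30, 8.57 and 8.81 in the cKO-labelled libraries, against 12.19, 11.55 and 12.22 in the WT-labelled ones (limma difference −3.43, SE 0.27, adjusted p = 1.42e-10). Rsad2 followed with a difference of −2.72 (SE 0.23, limma adjusted p = 2.79e-10), and in none of these 4 genes did the groups overlap. The 4 IFIT, 2 MX and 6 OAS genes were each lower, with medians of −2.22, −2.84 and −2.0. Ifitm3, a membrane protein that blocks viral entry, had 12.83, 13.01 and 12.95 in the cKO-labelled libraries, against 12.86, 12.86 and 13.23 in the WT-labelled ones, and was not called (−0.05, limma adjusted p = 0.85). Ifi35 was the other gene not called. All 10 neutrophil-lineage genes were higher in cKO-labelled BMM Ly6Chi, with sums of 144.1 to 158.1, against 111.8 to 114.0 in WT-labelled libraries, and 5 of 6 monocyte and macrophage genes were lower. Their part in the result was not tested.

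In BMM Ly6Cneg cells the genes were called in both directions. In the cKO-labelled libraries 6 were higher (Slfn4, Rtp4, Ifit3b, Xaf1, Oas2 and Ifi35) and 10 lower, while 13.6% of all genes were higher and 9.42% lower. The share of members called higher was thus near that of all genes. The median difference of the 36 was −0.10, against 0.27 for all genes, and was 0.10 without WT-labelled replicate 2. The 3 genes Parp9, Dtx3l and Parp14, of which the first 2 encode a complex that ubiquitinates histones and host targets, were all lower, and Dtx3l fell by 0.90 (SE 0.16, limma adjusted p = 7.70e-05). Mx1 had 7.49, 8.01 and 7.31 in the cKO-labelled libraries, against 8.69 and 8.69 in the WT-labelled ones (limma difference −1.08, SE 0.22, adjusted p = 0.000467). Usp18, the protease that removes ISG15 and blocks the receptor, had 7.23, 8.24 and 7.58 in the cKO-labelled libraries, against 8.68 and 8.79 in the WT-labelled ones (limma difference −1.05, SE 0.24, adjusted p = 0.00185). In these genes the WT-labelled libraries lay above all cKO-labelled ones. Stat2 had 10.02, 10.46 and 10.36 in the cKO-labelled libraries, against 11.07 and 11.27 in the WT-labelled ones (limma difference −0.89, SE 0.13, adjusted p = 3.37e-06). Rtp4, a chaperone of receptor transport with antiviral activity, ran the other way, with 9.31, 9.94 and 9.36 in the cKO-labelled libraries, against 8.09 and 8.41 in the WT-labelled ones (limma difference 1.29, SE 0.20, adjusted p = 2.04e-05). Xaf1, which binds the apoptosis inhibitor XIAP, had 9.08, 9.36 and 8.86 in the cKO-labelled libraries, against 8.14 and 8.42 in the WT-labelled ones (limma difference 0.82, SE 0.14, adjusted p = 1.66e-05). Ifit3b had 6.02, 7.24 and 6.75 in the cKO-labelled libraries, against 5.62 and 5.97 in the WT-labelled ones; its call (limma difference 0.88, SE 0.32, adjusted p = 0.0454) was lost when any of 4 libraries was left out (cKO-labelled replicates 2 and 3, WT-labelled replicates 1 and 2), with adjusted p of 0.0808 to 0.261. The count of 16 called genes was 10 without WT-labelled BMM Ly6Cneg replicate 2. Among 7 genes of mast cells, basophils and eosinophils, 6 were lower in cKO-labelled BMM Ly6Cneg, with sums of 39.4 to 42.7, against 57.9 to 59.8 in WT-labelled libraries, none at the minimum throughout, and their part was not tested. Of the 6 osteoclast markers 4 were higher there. Of 6 conventional dendritic cell genes 4 were lower, as were 4 of 6 monocyte and macrophage genes. The part of these lists was not tested either.

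**Figure D3:**
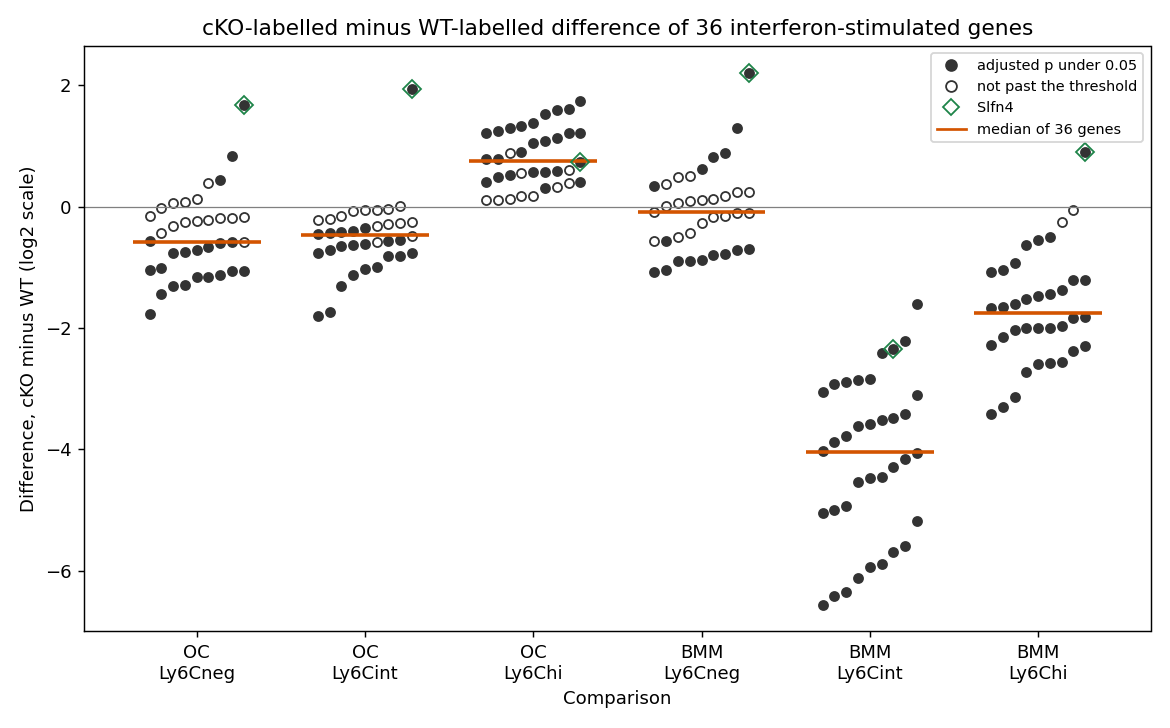
Difference between cKO-labelled and WT-labelled libraries (vertical axis, log2 scale) for each of the 36 genes (points, spread sideways only to separate them) in the 6 combinations of stage and subset. Filled points have an adjusted p under 0.05 and open points do not; the orange line is the median of the 36, −4.04 in BMM Ly6Cint and 0.75 in OC Ly6Chi, and the green diamond is Slfn4.

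In osteoclasts from Ly6Chi cells the direction was the other way: 26 of the 36 genes were higher in the cKO-labelled libraries, where 4.25% of all genes were higher and 3.61% lower. No member was called lower, and the median difference of the 36 was 0.75, against 0.00 for all genes. Rtp4 had 10.89, 10.43 and 10.74 in cKO-labelled OC Ly6Chi libraries, against 8.83, 8.95 and 9.06 in the WT-labelled ones (limma difference 1.74, SE 0.18, adjusted p = 4.70e-08). Xaf1 had 9.83, 9.67 and 9.79 in the cKO-labelled libraries, against 8.05, 8.18 and 8.24 in the WT-labelled ones (limma difference 1.61, SE 0.12, adjusted p = 7.90e-13). Ifit1 had 9.11, 8.54 and 8.78 in the cKO-labelled libraries, against 7.16, 7.16 and 7.32 in the WT-labelled ones (limma difference 1.60, SE 0.20, adjusted p = 2.27e-06). The groups did not overlap in these genes, nor in Usp18, which had 8.99, 8.29 and 8.61 in the cKO-labelled libraries, against 7.16, 6.99 and 7.17 in the WT-labelled ones (limma difference 1.53, SE 0.21, adjusted p = 8.35e-06). Ifit3 had 8.60, 7.81 and 7.90 in the cKO-labelled libraries, against 6.96, 6.81 and 6.55 in the WT-labelled ones (limma difference 1.33, SE 0.27, adjusted p = 0.00157). By role, all 5 sensing genes, all 3 genes of the ISG15 system and all 3 of Parp9, Dtx3l and Parp14 were higher; Ddx58, which encodes the RNA helicase RIG-I, had 11.20, 11.05 and 11.35 in the cKO-labelled libraries, against 9.74, 9.83 and 9.90 in the WT-labelled ones. Of the 6 OAS genes 3 were higher, and the membrane factors Ifitm3 and Bst2 were not called. In these libraries no gene of the neutrophil-lineage list was called by limma (2 of 10 at an unadjusted p under 0.05), with sums of 76.1 to 84.6 in cKO-labelled and 74.3 to 77.6 in WT-labelled libraries, and none of the 6 osteoclast markers was called (1 of 6 at an unadjusted p under 0.05), with sums of 94.8 to 95.5 in cKO-labelled and 96.2 to 96.6 in WT-labelled libraries. The count of higher genes was 15 when only the 6 compared libraries were fitted.

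Osteoclasts from the Ly6Cint and Ly6Cneg cells showed the opposite sign for a subset of roles. In OC Ly6Cint 21 genes were lower in the cKO-labelled libraries and 1, Slfn4, was higher, where 5.94% of all genes were lower and 8.18% higher; the median of the 36 was −0.47. All 6 OAS genes were lower (median −1.08), while none of the 4 IFIT genes was called by limma, nor was any at an unadjusted p under 0.05 (0 of 4). Oas3, an oligoadenylate synthetase of long double-stranded RNA, had 10.11, 9.67 and 9.43 in cKO-labelled OC Ly6Cint libraries, against 11.49, 11.53 and 11.62 in the WT-labelled ones (limma difference −1.81, SE 0.18, adjusted p = 1.46e-08). Ifit3 had 8.0, 7.93 and 7.45 in the cKO-labelled libraries, against 8.08, 7.98 and 7.99 in the WT-labelled ones (−0.22, limma adjusted p = 0.834). The groups lay apart for Oas3 and overlapped for Ifit3. Oasl2 had 9.35, 8.61 and 8.61 in the cKO-labelled libraries, against 10.39, 10.46 and 10.92 in the WT-labelled ones (limma difference −1.73, SE 0.27, adjusted p = 2.79e-05). Ifi44, a cytoplasmic protein of unsettled function, fell by 1.31 (SE 0.27, limma adjusted p = 0.000698), and Oas1g fell by 1.13 (SE 0.20, limma adjusted p = 0.000105). All 10 neutrophil-lineage genes were higher in the cKO-labelled libraries, with sums of 101.1 to 106.4, against 74.9 to 77.7 in the WT-labelled ones, and their part was not tested. With only the 6 compared libraries in the fit, 13 genes were called, 12 of them lower.

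In OC Ly6Cneg 18 genes were lower in the cKO-labelled libraries and 3 higher (Slfn4, Rsad2 and Isg20), where 7.52% of all genes were lower and 9.53% higher; the median of the 36 was −0.58. Ddx58 had 10.77, 10.42 and 10.57 in cKO-labelled OC Ly6Cneg libraries, against 11.89 and 11.92 in the WT-labelled ones (limma difference −1.31, SE 0.14, adjusted p = 2.56e-09). Oasl2 had 10.36, 9.79 and 9.94 in the cKO-labelled libraries, against 11.78 and 11.82 in the WT-labelled ones (limma difference −1.77, SE 0.30, adjusted p = 7.01e-05). Ifi44 had 7.29, 6.80 and 7.09 in the cKO-labelled libraries, against 8.56 and 8.46 in the WT-labelled ones (limma difference −1.45, SE 0.30, adjusted p = 0.000668). In all of these the WT-labelled libraries were the higher, with no overlap. Parp9, Dtx3l and Parp14 were all lower, with a median of −1.13, and 4 of 6 OAS genes were lower, Oas3 by 1.29 (SE 0.20, limma adjusted p = 1.76e-05). None of the 4 IFIT genes was called by limma, nor was any at an unadjusted p under 0.05 (0 of 4). Rsad2 had 9.69, 9.38 and 10.43 in the cKO-labelled libraries, against 8.95 and 9.04 in the WT-labelled ones (limma difference 0.83, SE 0.25, adjusted p = 0.022); the call was lost without cKO-labelled replicate 3 (adjusted p = 0.139) or without either WT-labelled library (0.151 and 0.0942). The 6 osteoclast markers were all higher in cKO-labelled OC Ly6Cneg, with sums of 88.8 to 90.4, against 74.4 to 75.2 in WT-labelled libraries, and 6 of 10 neutrophil-lineage genes were higher. Plasmacytoid dendritic cell genes were lower in 4 of 7 cases, with sums of 49.7 to 52.5 in cKO-labelled libraries, against 56.4 to 57.2 in WT-labelled ones. The part of these cells was not tested.

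In WT-labelled cells of the Ly6C-positive subsets the interferon-stimulated genes were lower in osteoclasts than at day 0. In WT-labelled Ly6Cint cells all 36 were lower in OC than in BMM libraries, where 15.4% of all genes were lower and 13.1% higher. The median of the 36 was −3.44, against −0.06 for all genes. In WT-labelled Ly6Chi cells all 36 were lower in OC as well, where 20.4% of all genes were lower and 13.7% higher. The median of the 36 was −2.23, against −0.28 for all genes. In Ly6Cint the largest fall was that of Slfn4, with 6.79, 6.52 and 6.89 in OC, against 14.34, 13.79 and 13.92 in BMM (limma difference −7.29, SE 0.22, adjusted p = 4.00e-20). Ifit2, Mx1 and Ifit3 followed with differences of −6.54, −6.25 and −5.91. In Ly6Chi the largest were Mx1 (−3.78), Ifit3 (−3.75), Ifit2 (−3.50) and Rsad2 (−3.37), and Mx1 had 6.10, 6.15 and 6.45 in OC, against 10.24, 9.60 and 10.19 in BMM. All 10 neutrophil-lineage genes were lower in OC too, with sums of 74.9 to 77.7 in OC and 132.6 to 134.2 in BMM for WT-labelled Ly6Cint, and 74.3 to 77.6 in OC and 111.8 to 114.0 in BMM for WT-labelled Ly6Chi. Of the 6 monocyte and macrophage genes 5 were lower and 1 higher in OC in both subsets, with sums of 68.0 to 68.3 in OC and 89.2 to 90.1 in BMM for Ly6Cint, and 66.5 to 67.0 in OC and 82.3 to 83.5 in BMM for Ly6Chi. The part of these genes was not tested. The comparisons of stage share libraries with the comparisons of label.

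WT-labelled Ly6Cneg cells moved the other way: 27 genes were higher in OC than in BMM and none was called lower. Of all genes 6.55% were higher and 5.69% lower. The median of the 36 was 0.98, against −0.03 for all genes. Oas2 had 11.86 and 11.92 in WT-labelled OC Ly6Cneg, against 8.81 and 9.32 in BMM (limma difference 2.83, SE 0.19, adjusted p = 6.45e-13). Rtp4 had 10.90 and 10.83 in OC, against 8.09 and 8.41 in BMM (limma difference 2.62, SE 0.22, adjusted p = 3.53e-10). Oasl2 had 11.78 and 11.82 in OC, against 8.58 and 9.17 in BMM (limma difference 2.92, SE 0.32, adjusted p = 2.34e-07). The 2 libraries of each stage did not overlap, and all 6 OAS genes were higher (median 2.11). The genes not called in these cells were Ifit3b, Mx1, Mx2, Isg20, Usp18, Stat2, Zbp1, Ifitm3 and Slfn4. All 7 genes of mast cells, basophils and eosinophils and 9 of 10 neutrophil-lineage genes were lower in these OC libraries, with sums of 33.6 to 34.7 and 84.0 to 85.1, against 57.9 to 59.8 and 120.5 to 122.8 in BMM, and their part was not tested.

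In cKO-labelled cells the difference between stages depended on the subset. In cKO-labelled Ly6Cneg the median of the 36 was 0.70, against −0.36 for all genes. There 25 genes were higher in OC and none was called lower, where 14.5% of all genes were higher and 28% lower. All 6 OAS genes were among them, and Oas1g had 8.95, 8.68 and 8.54 in OC, against 6.50, 7.17 and 6.57 in BMM (limma difference 1.98, SE 0.20, adjusted p = 3.24e-09). Slfn5, a Schlafen family protein, had 12.46, 12.13 and 12.31 in OC, against 9.73, 10.29 and 9.88 in BMM (limma difference 2.33, SE 0.14, adjusted p = 2.63e-14). In cKO-labelled Ly6Chi 16 genes were higher and 5 lower, where 15.5% of all genes were higher and 26.3% lower. The median of the 36 was 0.26, against −0.27 for all genes. The 5 lower were Slfn4 (−3.12), Ifitm3 (−1.28), Isg20 (−1.13), Ifi35 (−0.45) and Dhx58. The Ifi35 libraries of the 2 stages overlapped, and its call was lost with only the compared libraries in the fit (limma adjusted p = 0.12). In cKO-labelled Ly6Cint 8 were higher and 12 lower, where 16.4% of all genes were higher and 32.3% lower. The share of members called lower was thus near that of all genes. The median of the 36 was −0.14, against −0.34 for all genes. There Slfn4 fell by 3.0, and Ifitm3, Isg20 and Ifit2 had differences of −1.45, −1.4 and −0.85, while Slfn5 rose by 0.79, Parp14 by 0.64 and Rsad2 by 0.59. The Rsad2 call in Ly6Cint (limma adjusted p = 0.0361) was lost without any of 4 libraries, OC replicates 1 and 2 and BMM replicates 2 and 3, with adjusted p of 0.0658 to 0.129. The median in Ly6Cint was 0.01 under quantile normalization and 0.03 without OC replicate 3. Neutrophil-lineage genes were lower in these OC libraries too, 10 of 10 in Ly6Cint (sums of 101.1 to 106.4 in OC and 162.1 to 163.9 in BMM), 10 of 10 in Ly6Chi (76.1 to 84.6 in OC and 144.1 to 158.1 in BMM) and 6 of 10 in Ly6Cneg, with 1 higher (96.6 to 99.6 in OC and 118.4 to 129.8 in BMM). Of the 6 monocyte and macrophage genes 4 were lower and 2 higher in Ly6Cint and in Ly6Chi, and 3 lower and 3 higher in Ly6Cneg, and the part of both lists was not tested.

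**Figure D4:**
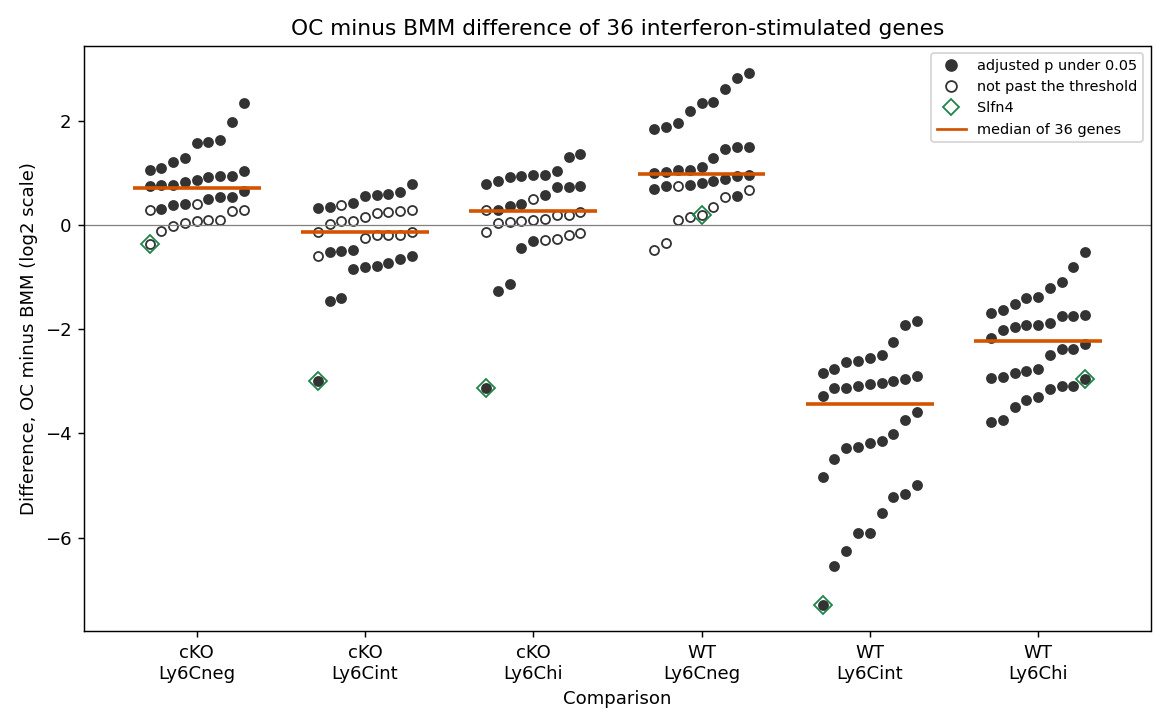
Difference between OC and BMM libraries (vertical axis, log2 scale) for each of the 36 genes (points, spread sideways only to separate them) in the 6 combinations of label and subset. Filled points have an adjusted p under 0.05 and open points do not; the orange line is the median of the 36, which was −3.44 in WT-labelled Ly6Cint and 0.98 in WT-labelled Ly6Cneg, and the green diamond is Slfn4.

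The change with label was tested against the change with culture by an interaction, the cKO minus WT difference in OC minus the same difference in BMM. It was positive and called for 36 of 36 genes in Ly6Cint (median 3.57, where 13% of all genes were higher and 13.1% lower) and for 33 in Ly6Chi (median 2.58, 12.1% and 11.6%). The median of all genes was −0.24 in Ly6Cint, −0.02 in Ly6Chi and −0.26 in Ly6Cneg. In Ly6Cneg the interaction was negative and called for 12 members (median −0.37, 8.58% of all genes higher and 8.71% lower), a count of 7 without WT-labelled BMM Ly6Cneg replicate 1. The largest in Ly6Cint was Rsad2 at 6.50 (SE 0.32, limma adjusted p = 1.54e-14), and the largest in Ly6Chi was Ifit3 at 4.47 (SE 0.38, limma adjusted p = 9.81e-10). In Ly6Cneg it was Rtp4 at −1.86 (SE 0.28, limma adjusted p = 1.52e-05). In Ly6Chi cells 25 genes were called lower in cKO-labelled BMM and higher in cKO-labelled OC, as were 1.7% of all genes. In Ly6Cint 1 gene, Slfn4, did so (2.33% of all genes), and in Ly6Cneg 3 genes, Oas2, Rtp4 and Xaf1, were higher in cKO-labelled BMM and lower in cKO-labelled OC (0.967% of all genes). When only the compared libraries were fitted, 15 members were called higher in cKO-labelled OC Ly6Chi, which limits the count of 25. The 3 genes of the interaction not called in Ly6Chi were Ifitm3, Slfn4 and Ifi35, with differences of 0.23, −0.17 and 0.37.

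Among subsets, WT-labelled BMM cells were ordered Ly6Cint, Ly6Chi, Ly6Cneg. All 36 genes were higher in Ly6Cint than in Ly6Chi (median 2.34, where 8.52% of all genes were higher and 7.09% lower), and Slfn4 differed by 4.25. All 36 were lower in Ly6Cneg than in Ly6Cint (median −4.16, 10.8% of all genes lower and 12.2% higher), and 34 were lower in Ly6Cneg than in Ly6Chi (median −1.82, 10% lower and 10.6% higher), where Usp18 and Ifitm3 were not called. In WT-labelled osteoclasts the order was Ly6Cneg, Ly6Cint, Ly6Chi. There 34 genes were higher in Ly6Cneg than in Ly6Chi (median 1.58, where 10.9% of all genes were higher and 8.12% lower), 21 higher in Ly6Cneg than in Ly6Cint (median 0.62, 8.11% and 5.44%) and 31 higher in Ly6Cint than in Ly6Chi (median 0.98, 1.59% and 1.31%); none was called lower. Isg15 shows the last of these, with 8.66, 8.65 and 9.16 in WT-labelled OC Ly6Cint, against 7.52, 8.08 and 7.77 in WT-labelled OC Ly6Chi.

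In cKO-labelled BMM cells 1 gene was higher in Ly6Cint than in Ly6Chi (Slfn4, by 0.99) and 1 lower (Xaf1, −0.45), where 4.04% of all genes were higher and 2.79% lower. Between cKO-labelled BMM Ly6Cneg and Ly6Chi 2 genes were higher (Mx1 and Oasl1) and 12 lower (18.8% and 8.22% of all genes), and between Ly6Cneg and Ly6Cint 1 was higher (Oasl1) and 12 lower (17.4% and 10.1%). In cKO-labelled osteoclasts 24 genes were higher in Ly6Cneg than in Ly6Cint (14% of all genes, with 10.7% lower) and none was called lower, and 9 were higher and 4 lower in Ly6Cneg than in Ly6Chi (14.4% and 9.08%). Between cKO-labelled OC Ly6Cint and Ly6Chi 1 gene was higher, Slfn4, and 11 lower (2.88% and 2.39%), among them all OAS genes but Oasl2. With only the compared libraries in the fit, the called genes were 14 for OC Ly6Cneg against Ly6Cint, 2 for OC Ly6Cint against Ly6Chi, 4 for BMM Ly6Cneg against Ly6Chi and none for BMM Ly6Cint against Ly6Chi by limma (8 at an unadjusted p under 0.05). The count of 12 for OC Ly6Cint against Ly6Chi fell to 6 without Ly6Cint replicate 3 and to 7 without Ly6Chi replicate 3. Bst2 (tetherin), which holds budding virus at the cell surface, was one of the 11, with 10.56, 10.53 and 10.69 in Ly6Cint, against 11.56, 11.07 and 11.24 in Ly6Chi.

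Likeness to the common pattern was measured for each gene as Pearson's r between its 12 group means and the mean of the other 35 centred genes. It is a description over 12 groups that share libraries and normalisation. It ran between 0.63 and 0.99 with a median of 0.96, and 30 of 36 genes reached 0.9. Ifit3 and Ifit1 both had 0.99. The 8 least like were Slfn4 (0.63), Ifitm3 (0.81), Isg20 (0.88), Rtp4 (0.88), Oas3 (0.89), Oas2 (0.89), Oas1g (0.91) and Xaf1 (0.93). Without WT-labelled BMM Ly6Cint, the r over the other 11 groups had a median of 0.87 and 10 genes reached 0.9; 5 of the 8 least like were then the same. By Spearman's rho over the 12 groups only 3 of the 8, Slfn4, Ifitm3 and Isg20, were among the 8 least like.

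**Figure D5:**
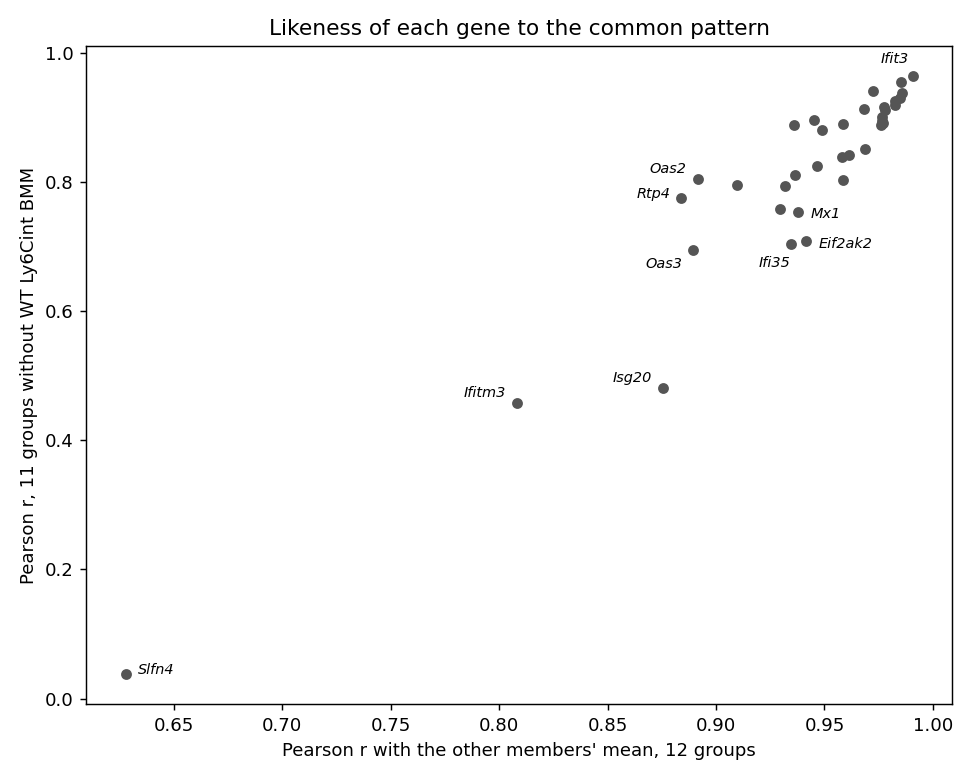
Likeness of each of the 36 genes (points) to the mean of the other members, as Pearson's r over 12 groups on one axis and over the 11 groups without WT-labelled BMM Ly6Cint on the other. Slfn4 lies lowest on both, at 0.63 over 12 groups and 0.04 over 11, and Ifit3 is highest over 12 at 0.99.

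Slfn4, a Schlafen family gene of myeloid cells, left the pattern in the cKO-labelled libraries. In BMM Ly6Cint it had 11.52, 11.76 and 11.71 in the cKO-labelled libraries, against 14.34, 13.79 and 13.92 in the WT-labelled ones (limma difference −2.36, SE 0.22, adjusted p = 1.34e-09). In BMM Ly6Cneg it had 8.65, 9.0 and 8.58 in the cKO-labelled libraries, against 6.69 and 6.38 in the WT-labelled ones (limma difference 2.21, SE 0.24, adjusted p = 1.50e-07). It was thus lower in one subset and higher in another, both without overlap. In BMM Ly6Chi it had 10.79, 10.15 and 11.07 in the cKO-labelled libraries, against 10.31, 9.20 and 9.80 in the WT-labelled ones, and the libraries overlapped (limma difference 0.90, SE 0.22, adjusted p = 0.00186; 0.0511 with only these 6 libraries in the fit). In OC Ly6Cint it had 8.66, 8.70 and 8.63 in the cKO-labelled libraries, against 6.79, 6.52 and 6.89 in the WT-labelled ones (limma difference 1.93, SE 0.22, adjusted p = 1.55e-07). In OC Ly6Cneg it had 8.23, 8.38 and 8.55 in the cKO-labelled libraries, against 6.66 and 6.78 in the WT-labelled ones (limma difference 1.67, SE 0.24, adjusted p = 6.96e-06). The OC groups of both subsets lay apart. In OC Ly6Chi it had 7.64, 7.65 and 7.35 in the cKO-labelled libraries, against 6.58, 6.99 and 6.89 in the WT-labelled ones (limma difference 0.73, SE 0.22, adjusted p = 0.0372). Of the 10 neutrophil-lineage genes, 9 were higher in cKO-labelled BMM Ly6Cint, where Slfn4 was lower. Where Slfn4 was higher, 10 of them were higher in BMM Ly6Chi, 10 in OC Ly6Cint, 6 in OC Ly6Cneg and 2 in BMM Ly6Cneg, and none was called by limma in OC Ly6Chi (2 of 10 at an unadjusted p under 0.05). Their part in the Slfn4 values was not tested.

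Ifitm3 and Isg20, an RNA exonuclease, were the next least like. Ifitm3 had 12.94, 12.65 and 12.87 in cKO-labelled BMM Ly6Cint, against 14.86, 15.13 and 15.12 in the WT-labelled libraries (limma difference −2.21, SE 0.14, adjusted p = 2.25e-13). Among comparisons of label it was called in one other, OC Ly6Cint, with 11.48, 11.19 and 11.44 in the cKO-labelled libraries, against 12.04, 12.10 and 12.44 in the WT-labelled ones (limma difference −0.82, SE 0.14, adjusted p = 7.76e-05). Its level was high in every group, with all libraries above 11. Isg20 had 8.39, 8.25 and 8.48 in cKO-labelled BMM Ly6Cint, against 11.12, 11.23 and 11.32 in the WT-labelled libraries (limma difference −2.85, SE 0.13, adjusted p = 3.56e-20). In OC Ly6Cneg it had 7.64, 7.44 and 7.74 in the cKO-labelled libraries, against 7.29 and 7.03 in the WT-labelled ones, a call (limma difference 0.44, SE 0.15, adjusted p = 0.0299) lost without cKO-labelled replicate 1 or 3 or WT-labelled replicate 2, with adjusted p of 0.0769 to 0.391.

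Oas3, Oas2, Oas1g, Rtp4 and Xaf1 complete the least like genes by Pearson's r, and none of them was among the 8 least like by Spearman's rho. Oas3 had 11.51, 11.06 and 11.12 in cKO-labelled OC Ly6Cneg, against 12.50 and 12.53 in the WT-labelled libraries, which were its second highest group. In BMM Ly6Cint it had 9.52, 9.53 and 9.44 in the cKO-labelled libraries, against 14.61, 14.60 and 14.80 in the WT-labelled ones. The cKO-labelled OC Ly6Cneg libraries of Oas3 thus lay above all 3 cKO-labelled BMM Ly6Cint ones. Oas2 had 10.96, 10.66 and 11.02 in cKO-labelled OC Ly6Chi, against 9.68, 9.76 and 10.04 in the WT-labelled libraries (limma difference 1.05, SE 0.15, adjusted p = 1.06e-05), and 10.98, 10.46 and 10.75 in cKO-labelled OC Ly6Cneg, against 11.86 and 11.92 in the WT-labelled ones (limma difference −1.16, SE 0.17, adjusted p = 4.43e-06). Oas1g had 7.79, 7.31 and 7.66 in cKO-labelled OC Ly6Cint, against 8.64, 8.57 and 8.94 in the WT-labelled libraries. Oas2 changed sign with the subset, and the difference of its cKO minus WT values between OC Ly6Cneg and OC Ly6Chi was −2.21 (SE 0.23, limma adjusted p = 1.36e-08). The same interaction was −2.31 for Rtp4 (SE 0.26, limma adjusted p = 2.12e-07) and −2.20 for Xaf1 (SE 0.18, limma adjusted p = 4.27e-12). Rtp4 had 10.58, 10.05 and 10.25 in cKO-labelled OC Ly6Cneg, against 10.90 and 10.83 in the WT-labelled libraries.

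Some members can share reads. Ifit3 with Ifit3b and Oas1a with Oas1g are near-identical pairs, so how reads were split between them is uncertain. In the matched gene models 3 members (Rtp4, Herc6 and Parp14) overlap an exon of another gene on the same strand, and 8 (Oasl1, Usp18, Dhx58, Parp9, Dtx3l, Slfn5, Eif2ak2 and Ifi35) on the other strand; Parp9 and Dtx3l overlap each other there. Whether counting used the strand is not stated in the sources used here. By chromosome, 6 members lie on chromosome 16 (Mx1, Mx2, Rtp4, Parp9, Parp14 and Dtx3l), 6 on chromosome 5 (the OAS genes), 5 on chromosome 11 and the 4 IFIT genes on chromosome 19. Mx2 is annotated as a polymorphic pseudogene.

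Genes of interferon induction and signalling that are not members came from a list of 44, of which 37 were in the tested table. In BMM Ly6Cint 31 were lower and 2 higher in the cKO-labelled libraries (median −1.15), by limma with adjustment over all genes. Of all genes 14.7% were lower and 25% higher. Irf7, the factor that amplifies interferon production, averaged 9.56 in cKO-labelled and 15.20 in WT-labelled libraries (limma difference −5.65, SE 0.20, adjusted p = 1.07e-17). Tlr9, the endosomal DNA sensor, averaged 7.18 in cKO-labelled and 12.56 in WT-labelled libraries (limma difference −5.38, SE 0.16, adjusted p = 1.84e-25). Irf9, a subunit of ISGF3, fell by 2.05, and of the receptor and its kinases Ifnar1 fell by 1.15, Ifnar2 by 0.78, Jak1 by 0.79 and Tyk2 by 2.08. Irf3, whose product acts after phosphorylation, averaged 11.23 in cKO-labelled and 11.25 in WT-labelled libraries and was not called (−0.01, limma adjusted p = 0.945). The interferon beta gene Ifnb1 was low, with 3.90 to 5.36 in cKO-labelled and 6.30 to 6.70 in WT-labelled libraries (limma difference −2.06, SE 0.42, adjusted p = 0.000125). The higher genes were Ptpn2 (0.44) and Ifna4, whose values lay near the minimum.

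In BMM Ly6Chi 27 of the 37 pathway genes were lower and 1 higher in the cKO-labelled libraries (15.3% and 14.4% of all genes). In BMM Ly6Cneg 18 were lower and 1 higher (9.42% and 13.6%). In OC Ly6Chi 11 were higher and 1 lower (4.25% and 3.61%), the lower one being Irf5 (−0.96). Irf7 averaged 10.33 in cKO-labelled OC Ly6Chi and 8.68 in WT-labelled libraries (limma difference 1.65, SE 0.20, adjusted p = 2.02e-06). Socs3, a feedback inhibitor, rose by 1.03, Jak2 by 0.99 and Tlr7 by 0.98, while Ifnar1 (0.29) was not called. Ifnb1 averaged 3.90 in cKO-labelled and 4.17 in WT-labelled OC Ly6Chi libraries, at or near the minimum. In OC Ly6Cneg 5 of the 37 were higher and 11 lower (9.53% and 7.52% of all genes), with a median of −0.01. In OC Ly6Cint 6 were higher and 9 lower (8.18% and 5.94%), with a median of −0.08.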

How the data were processed

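Per the labels' protocols, Illumina libraries were made from total RNA purified on columns. The values are log2-scale normalised expression per gene as the authors deposited them (the sources used here state neither transform nor counting, annotation or strand). Build mm10 and the tools HISAT2, DESeq2, deepTools, bcl2fastq 2.17.1 and CASAVA 1.8.4 are named without roles, per the submitters' processing notes. Gene identifiers matched GENCODE M21 for 38942 of 38942 rows.

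Libraries were grouped by the labels for genotype, stage and subset. One limma model (version 3.58.1, R 4.3.3, with Python 3.11.15) was fitted with 12 group means, moderated with a trend and robustly, with 22 residual degrees of freedom, over 38873 genes above 4.78, the 5th percentile of values over the minimum, in at least 3 libraries. Its 33 comparisons (6 of label, 6 of stage, 12 of subset, 3 and 6 interactions) were each adjusted by Benjamini-Hochberg and called under 0.05; the procedure was tested on simulated data. An exact permutation test of 1 gene could not go below 0.1 for 3 against 3 libraries or 0.2 for 3 against 2. Of 32 pairs of libraries within a group, none agreed within sampling noise (chi-square per gene 2.16 to 8.55). Total reads per library are unknown, so no intervals from counts are given. Marker lists and a pathway list were used as descriptions. 1 gene of the pathway list enters its counts and is not otherwise reported here. The members and lists were chosen with earlier results of these data known. The text names, per comparison, up to 4 called members with the largest difference in each direction, members called against the majority, and the 8 least like the common pattern; Ifit1, Isg15, Stat2, Ddx58 and Bst2 were added after their values were seen, as examples of a role. Alternatives were no filter, a filter at the 25th percentile (5.29, leaving 32236 genes), quantile normalization, a median shift, no trend and no robust step, only the compared libraries, and leaving out each library; likeness was also taken by Spearman's rho, over libraries and, added after seeing the data, without 1 group.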

Additional observations from a re-analysis of the deposited data

Results flagged for a closer look

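Differences in cKO minus WT that themselves differed between stages or subsets were looked at by the limma interaction, with adjusted p under 0.05 over all genes. Between OC and BMM they differed for 12 of the 36 genes in Ly6Cneg (where 8.58% of all genes were higher and 8.71% lower). That count was 7 without WT-labelled BMM Ly6Cneg replicate 1. In Ly6Cint the cKO minus WT differences differed for 36 genes (13% and 13.1%), and in Ly6Chi for 33 (12.1% and 11.6%). Between subsets of osteoclasts they differed for 27 genes between Ly6Cneg and Ly6Chi (where 6.41% of all genes were higher and 5.36% lower), for 6 between Ly6Cneg and Ly6Cint (4.21% and 4.08%) and for 34 between Ly6Cint and Ly6Chi (2.79% and 2.49%). Between subsets of BMM cells they differed for 33 genes between Ly6Cneg and Ly6Chi (10.1% and 7.74%), for 36 between Ly6Cneg and Ly6Cint (7.28% and 6.6%) and for 36 between Ly6Cint and Ly6Chi (3.84% and 4.78%). Calls of opposite sign, lower in cKO-labelled BMM and higher in cKO-labelled OC, were found for 25 genes in Ly6Chi (1.7% of all genes) and 1 gene, Slfn4, in Ly6Cint (2.33%). With only the compared libraries in the fit, 15 members were called higher in cKO-labelled OC Ly6Chi, which limits the count of 25. No group had more than 3 libraries, so single libraries were not tested against the others of their group.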

How the results depend on the processing

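The 33 counts of called members stayed within 1.5 times the reported count with no filter, a stricter filter, quantile normalization, a median shift, and no trend and robust step. With only the compared libraries in the fit 27 did so; the other 6 were 13 for label in OC Ly6Cint, 15 for label in OC Ly6Chi, and, in cKO-labelled cells, 14 for OC Ly6Cneg against Ly6Cint, 2 for OC Ly6Cint against Ly6Chi, 4 for BMM Ly6Cneg against Ly6Chi and 0 for BMM Ly6Cint against Ly6Chi by limma (8 at an unadjusted p under 0.05), each from fewer libraries. Leaving out single libraries kept 231 counts within 1.5 times and moved 7 further; the ranges of these were 7 to 13 for label by stage in Ly6Cneg (12 reported), 6 to 14 for cKO-labelled OC Ly6Cint against Ly6Chi, 10 to 14 for label in BMM Ly6Cneg (16 reported) and 1 to 3 for cKO-labelled BMM Ly6Cint against Ly6Chi, which was 1 without Ly6Cint replicate 2 or 3 or Ly6Chi replicate 2. No difference of a named gene changed sign. The median of the 36 did so in 4 comparisons, all near 0 as reported: label in BMM Ly6Cneg (0.10 without WT-labelled replicate 2), cKO-labelled OC against BMM Ly6Cint (0.01 and 0.03), label by subset in OC Ly6Cneg against Ly6Cint (−0.02 reported, 0.05 to 0.15 when 1 of 4 libraries was left out) and cKO-labelled BMM Ly6Cint against Ly6Chi (−0.0017 reported, 0.01 to 0.06 when 1 of 3 was). Of 77 differences of named genes, 75 kept their call under quantile normalization (Isg20 in OC Ly6Cneg and Ifit3b in BMM Ly6Cneg did not) and 72 with only the compared libraries. Quantile normalization moved the all-gene median of the label difference to 0.05 in BMM Ly6Cint and to 0.03 in BMM Ly6Cneg, against 0.28 and 0.27 as reported, and label by stage in Ly6Cneg then had 2 higher and 13 lower. No paired analysis was possible because the numbers in the titles are serial over all samples and pair none across groups. Values near that of 10 reads limit Ifit3b and the ligands most.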

Other observations

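The genes outside the 36 whose values ran most like the common level over the 34 libraries, leaving out predicted and clone-named genes, were Ifi213, Gbp2, Ifi47, Irgm2, Igtp, Irgm1, Parp10, Ifit1bl1, Ifi203 and Irf7, with Pearson's r of 0.98 to 0.99. The libraries share normalisation and groups, so r is a description. Gbp2, a guanylate-binding protein, averaged 8.20 in cKO-labelled and 13.34 in WT-labelled BMM Ly6Cint libraries, and 8.32 in cKO-labelled and 7.75 in WT-labelled OC Ly6Chi libraries. Irgm1, an immunity-related GTPase, averaged 9.80 in cKO-labelled and 13.44 in WT-labelled BMM Ly6Cint libraries, and 10.39 in cKO-labelled and 9.77 in WT-labelled OC Ly6Chi libraries. For the remaining marker lists in BMM Ly6Cint, of 8 B and plasma cell genes 1 was higher and 2 lower in the cKO-labelled libraries, of 7 T and NK cell genes 2 were higher and 2 lower, and of 6 conventional dendritic cell genes 5 were lower (median −0.92). Of 7 mast cell, basophil and eosinophil genes 2 were higher and 1 lower. All 6 osteoclast markers were higher (median 1.36), with sums of 61.4 to 66.0, against 55.5 to 56.4 in WT-labelled libraries. The part of these lists was not tested.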
